A study of Mus musculus with 2 samples.

Results

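Ccl17, Ccl22, Ccl24, Ccl6 and Ccl9 encode chemokines made by dendritic cells, monocytes, macrophages and neutrophils, and Ccr7, Xcr1 and Cx3cr1 encode chemokine receptors. These 8 genes, taken as a list of chemokine and receptor genes and all present among the 32285 genes in the matrices of both libraries, were followed across cell classes named from marker lists that hold none of them, and between the WT and the KO library.

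Chemokines are small secreted proteins that steer leukocytes along concentration gradients by binding G protein-coupled receptors. Dendritic cells (DCs) that have taken up antigen mature, switch on the receptor CCR7 and follow its ligands into lymphatic vessels toward draining lymph nodes, while making CCL17 and CCL22, which attract CCR4-bearing T cells, regulatory T cells among them. CCL24 (eotaxin-2) binds CCR3 on eosinophils, CCL6 and CCL9 are rodent chemokines that bind CCR1, XCR1 marks cross-presenting type 1 DCs, and CX3CR1, the receptor for fractalkine, is carried by intestinal macrophages and patrolling monocytes.

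Both libraries were made from CD11b+ and CD11c+ cells sorted out of colorectal polyps of C57BL6/J mice aged 26 weeks, all given azoxymethane (AOM, a colon carcinogen) followed by 3 cycles of 1% dextran sodium sulfate (DSS, which injures the colon lining) in a 16-week course. The WT library pooled 5 wild-type mice and the KO library pooled 4 Clec7a-/- mice, which lack Dectin-1, the receptor for fungal β-glucans; untreated mice were not analysed here. Clec7a itself was not analysed here, so the labels were not checked by the targeted gene. With 1 library per group there is no replicate and no test between WT and KO. What the animals of a pool share, the genotype and the library cannot be told apart. Whether the libraries shared a sequencing run was not settled here. The intervals given, all at 95%, cover counting error only.

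After cells with 200 to 4000 genes and at most 5% mitochondrial UMIs (unique molecular identifiers, counted transcripts) were kept, the WT library held 2696 cells with a median of 3412.5 UMIs and the KO library 1999 cells with a median of 2671. The limits removed 22.2% of the WT barcodes and 35.1% of the KO barcodes, and 17 barcodes were shared by the libraries, of which 6 were kept in both. Cells fell into 15 clusters, and the DC clusters were divided once more into 6, called D0 to D5. Mature DC-like cells (D2, D3 and D4) numbered 148 in WT and 246 in KO, conventional type 1 DC-like cells (cDC1-like, D1) 81 and 122, and conventional type 2 DC-like cells (cDC2-like, D0) 123 and 157. Of 14 mature DC markers, D2 and D3 each met 13 and D4 only 5, and D3 also met 3 cDC1 markers, Clec9a, Irf8 and Ifi205. D1 met 6 of 10 cDC1 markers and also 4 cDC2 markers. D0 met only 4 of 10 cDC2 markers, Clec10a, Mgl2, Klrd1 and H2-DMb2, and also 3 mature DC markers. The other named classes used here met 5 of 8 transitional, 7 of 10 monocyte, 10 of 12 macrophage, and 9 (cluster 1) or 6 (cluster 3) of 12 neutrophil markers. Although the label gives myeloid cells, 66 WT and 121 KO cells were T cell-like. Levels are given as CPM, the UMIs of a gene per 1000000 UMIs of the same cells. The 14 mature DC markers summed to 10749 CPM in WT and 11463 in KO mature DC-like cells. They were also present in cDC1-like cells (5668 and 5074) and cDC2-like cells (2994 and 2729), so the DC classes were not sharply apart.

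Ccl24 is named for eosinophils, and the libraries were checked for them. Of the 9 eosinophil markers looked for, Epx (eosinophil peroxidase), Il5ra (the interleukin-5 receptor chain) and Ear1 had 0 UMIs in both libraries, no cell had 3 or more of the 9, and 6 WT cells and 1 KO cell had 2 or more. Siglecf (77 and 23 UMIs) and Ear2 (111 and 36) made up most of the list. The summed level of the 9 genes was 17.3 CPM in WT and 9.79 in KO. No class could be named eosinophil-like, so no value here is a measurement on eosinophils.

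Among the ligands, Ccl17 and Ccl22 lie near each other in the genome, and so do Ccl6 and Ccl9. On chromosome 8, Ccl22 (chr8:94745590-94751699, plus strand, GRCm38 with the GENCODE M21 annotation) lies 58753 bases before Ccl17 (chr8:94810453-94812036, plus strand), with Cx3cl1, the ligand of Cx3cr1, between them. On chromosome 11, Ccl9 (chr11:83572919-83578636) and Ccl6 (chr11:83587882-83593087), both on the minus strand, are 9245 bases apart. Ccr7 lies at chr11:99144196-99155077 and Ccl24 at chr5:135569937-135573049, both on the minus strand. Xcr1 (chr9:123852315-123862029) and Cx3cr1 (chr9:119901616-120069879) share chromosome 9 and the minus strand; the annotated span of Cx3cr1 covers other genes, Wdr48 and Gorasp1 among them, and that of Ccl6 overlaps E230016K23Rik on the opposite strand. All 8 are annotated as protein coding. Only 1 of 1768 25-base words of the Ccl6 transcripts occurred in Ccl9, and 0 of 490 words of Ccl17 occurred in Ccl22, so the neighbours can be counted apart.

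The start regions of the 4 neighbouring ligands are shown because each pair is read out together below. Each runs from 250 bases before to 50 after the RefSeq start (GRCm38.p6), 5′ to 3′ on the gene's strand, and 6 of the 8 genes had such an entry; Ccl24 and Ccr7 are named only. In Ccl17 and Ccl22 the capitals mark matches, on either strand, to 4 short patterns.

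Ccl17, chr8:94810203-94810502, plus strand: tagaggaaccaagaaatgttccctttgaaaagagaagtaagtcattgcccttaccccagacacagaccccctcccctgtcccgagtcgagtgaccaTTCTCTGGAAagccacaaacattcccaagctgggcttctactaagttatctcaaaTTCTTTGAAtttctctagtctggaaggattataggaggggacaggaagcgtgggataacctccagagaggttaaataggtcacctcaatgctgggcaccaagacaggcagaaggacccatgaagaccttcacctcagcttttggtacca
Ccl22, chr8:94745434-94745733, plus strand: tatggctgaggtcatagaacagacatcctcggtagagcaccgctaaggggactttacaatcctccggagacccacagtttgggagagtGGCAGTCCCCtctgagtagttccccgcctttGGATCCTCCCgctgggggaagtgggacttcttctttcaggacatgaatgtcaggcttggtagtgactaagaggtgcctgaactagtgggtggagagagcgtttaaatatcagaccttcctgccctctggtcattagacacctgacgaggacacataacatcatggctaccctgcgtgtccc

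Ccl22 held 2 matches to the NF-κB-like pattern GGGNNNNNCC, at 162 to 153 and 131 to 122 bases before the start, a pattern found in 50.8% of 32851 promoters. Ccl17 held no match to it, but 1 match to TTCNNNNGAA (154 to 145 bases before, 6.95% of promoters) and 1 to TTCNNNGAA (99 to 91 bases before, 8.30%), the spaced palindromes that STAT proteins can bind. The fourth pattern, the AP-1-like TGANTCA (7.81%), was matched in Ccl9. GGGNNNNNCC was not particular to Ccl22, as it was also matched in Ccl9 (35 to 26 bases before) and Cx3cr1 (174 to 165 bases before). The Ccl17 and Ccl22 regions share no run longer than 8 bases. A match is a run of letters and not a measured site.

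In Ccl6 and Ccl9 the capitals mark the longest run that the 2 regions share.

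Ccl6, chr11:83593038-83593337, minus strand: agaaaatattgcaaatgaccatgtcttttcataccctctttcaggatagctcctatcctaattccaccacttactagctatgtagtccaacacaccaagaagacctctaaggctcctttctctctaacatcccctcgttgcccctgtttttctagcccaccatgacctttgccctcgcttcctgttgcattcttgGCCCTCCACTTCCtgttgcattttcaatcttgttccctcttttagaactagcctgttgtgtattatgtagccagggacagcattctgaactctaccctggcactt
Ccl9, chr11:83578587-83578886, minus strand: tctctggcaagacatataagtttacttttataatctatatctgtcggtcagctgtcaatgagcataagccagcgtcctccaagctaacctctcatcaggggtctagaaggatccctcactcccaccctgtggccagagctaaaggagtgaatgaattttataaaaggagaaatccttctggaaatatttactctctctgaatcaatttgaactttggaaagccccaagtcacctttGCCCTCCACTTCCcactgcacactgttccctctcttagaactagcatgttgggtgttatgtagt

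That run is 13 bases long, against 7 to 10 bases for the other pairs of the 6 genes.

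The first comparison asked how the 8 genes stood in the KO library against the WT library over all cells kept. Ccl17, Ccl22 and Xcr1 were at least 2-fold higher in KO, Ccr7 was just short of 2-fold higher, and Ccl6 was just short of 2-fold lower. Thus 3 of the 8 passed 2-fold higher and 0 passed 2-fold lower, where 5.47% of 11461 genes with at least 20 UMIs passed upward and 2.41% downward. Ccl17, Xcr1, Ccr7 and Ccl6 lay close enough to 2-fold for the processing to decide the count. TMM scaling took Xcr1 to 0.98 and Ccl6 to -1.09, which left 2 of the 8 higher and 1 lower, with 3.81% of genes higher and 3.25% lower. A mitochondrial limit of 10% took Ccr7 to 1.03 and Ccl6 to -1.11, for 4 higher and 1 lower, 500 to 6000 genes took Ccr7 past 2-fold, for 4 higher, and the mean over cells took Ccl17 to 0.90, for 2 higher. The median log2 ratio of the 8 was 0.77 and that of all 11461 genes was 0.15, a shift that TMM scaling takes to 0.01.

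Ccl22 showed the largest ratio of the 8, with 228.2 CPM in WT and 727.1 in KO, a log2 ratio of 1.67 (95% interval 1.61 to 1.74). Ccl17 went from 119.6 in WT to 273.6 in KO (1.19, 1.10 to 1.29), Xcr1 from 33.8 to 73.8 (1.13, 0.94 to 1.31) and Ccr7 from 554.5 to 1094 (0.98, 0.93 to 1.03). The DC genes of the list were thus all higher in the KO library. Ccl6 stood at 534.8 in WT and 278.2 in KO (-0.94, -1.01 to -0.87). Cx3cr1 was at 24.7 and 36.4 (0.56, 0.32 to 0.80). Ccl24, at 145.8 and 160.2 (0.14, 0.03 to 0.24), and Ccl9, at 166.7 and 144.5 (-0.21, -0.31 to -0.10), lay closest to equal, and the sign for Ccl24 was lost with TMM scaling (-0.01).

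The genes lay in different classes, and some, Ccl17 and Ccl24 among them, were spread over several. Over the WT library, the DC clusters held 91.5% of the Ccl22 UMIs, 92.0% of the Xcr1 UMIs, 83.6% of the Ccr7 UMIs and 60.1% of the Ccl17 UMIs. In KO the same clusters held 95.6%, 97.8%, 91.9% and 88.7%. Macrophage-like cells held 89.1% of the Cx3cr1 UMIs in WT and 82.5% in KO, and 54.7% and 59.2% of the Ccl9 UMIs. Transitional cells held 35.2% and 55.4% of the Ccl24 UMIs, followed in WT by the unnamed cluster 5 (26.5%) and macrophage-like cells (19.5%). The transitional class met Mmp19, Sdc1, Arg1, Vegfa and Inhba, and monocyte-like cells also met Sdc1, Arg1 and Inhba. The 8 transitional markers summed to 18607 CPM in WT and 11915 in KO transitional cells. The sums were higher in monocyte-like cells (28007 and 20009), cluster 5 (29891 and 24591) and neutrophil-like cells (36237 and 33959). The class was thus not set apart by its summed list. Neutrophil-like cells held 39.5% of the Ccl6 UMIs in WT and 23.8% in KO, where macrophage-like cells held more (45.5%).

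**Figure D1:**
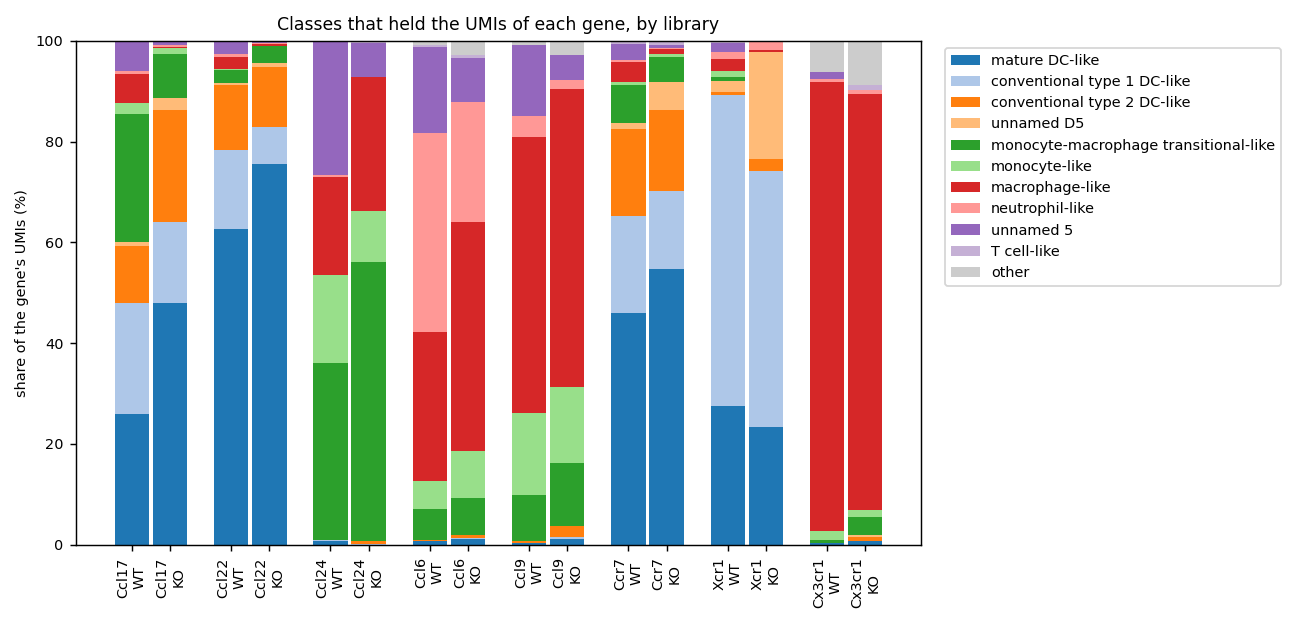
Share of each gene's UMIs (%, vertical axis) held by each class (colours), with a WT and a KO bar for every gene; grey is all other classes. The Ccl22 and Xcr1 bars are almost wholly DC in both libraries. DC clusters hold 83.6% of the Ccr7 UMIs in WT and 91.9% in KO, and 60.1% of the Ccl17 UMIs in WT and 88.7% in KO.

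**Figure D2:**
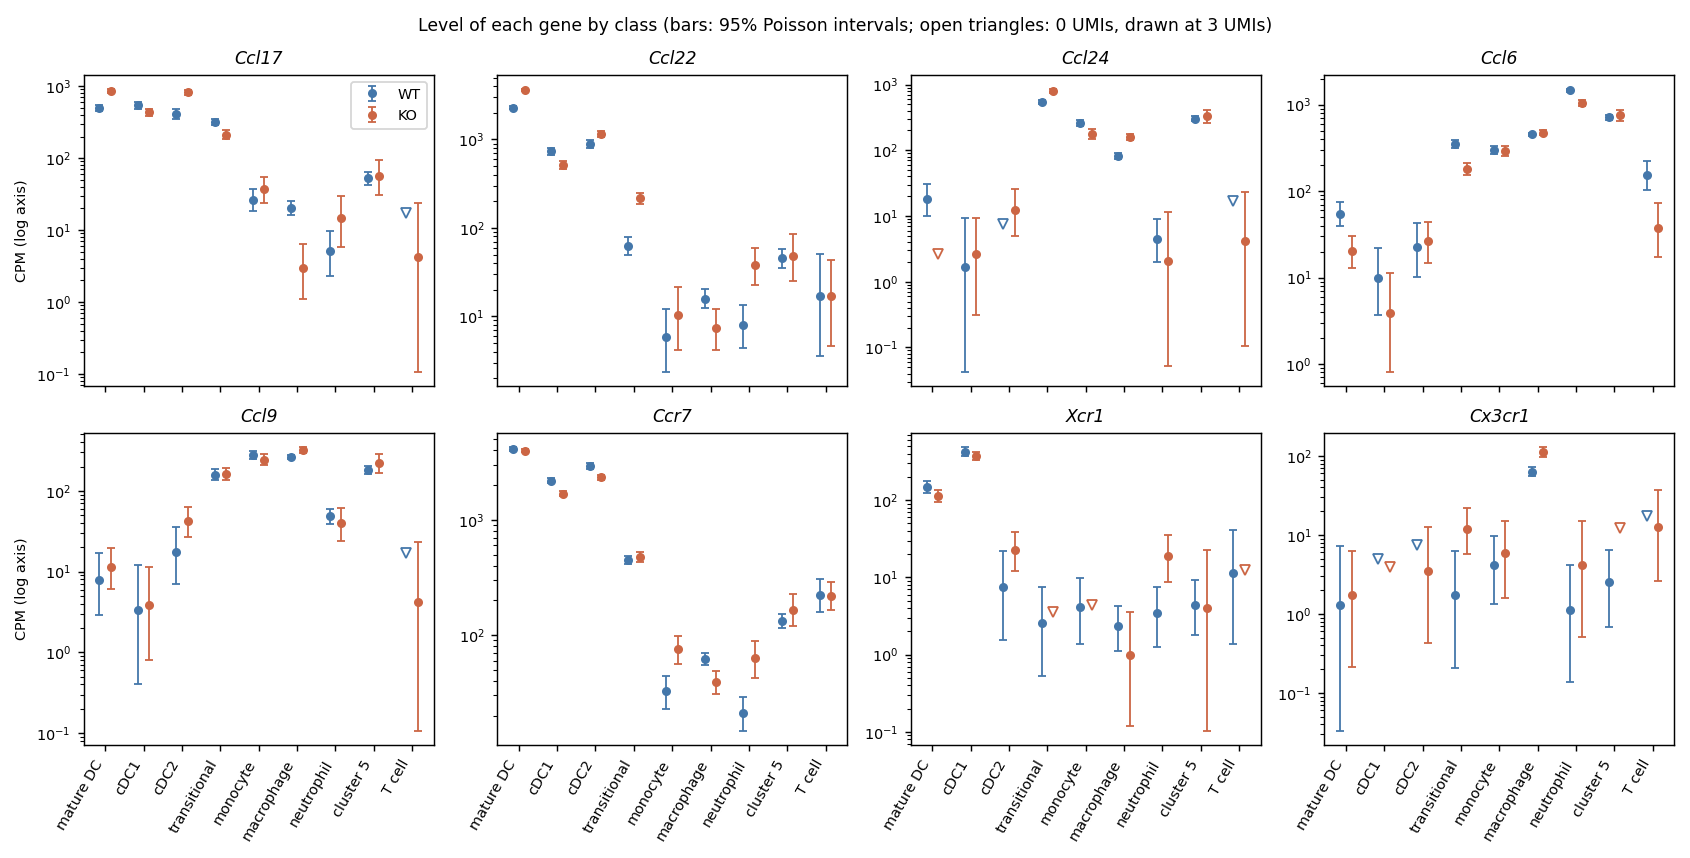
Level of each gene (CPM, log axis) in 9 classes, with 1 point for the WT and 1 for the KO library; bars are 95% Poisson intervals and open triangles stand for 0 UMIs, drawn at the value 3 UMIs would give. Ccr7 and Ccl22 are highest in mature DC-like cells, Ccl6 in neutrophil-like cells, Ccl24 in transitional cells and Cx3cr1 in macrophage-like cells.

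Of the ligands, Ccl22 was concentrated in DCs, above all in mature ones. Its level was 2292 CPM in WT and 3638 in KO mature DC-like cells, next 896.5 and 1164 in cDC2-like cells, then 737.1 and 519.3 in cDC1-like cells. Outside the DC clusters it was 22.7 and 50.8. The WT order of cDC2-like and cDC1-like cells rests on overlapping intervals, and the KO order does not. A UMI of Ccl22 was found in 83.1% of WT and 84.1% of KO mature DC-like cells, and after every cell was thinned to 1000 UMIs in 63.4% and 69.8%. T cell-like cells, which should lack the gene, had 1.79% and 1.10% after thinning, a background far under the DC values.

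Within mature DC-like cells the Ccl22 log2 ratio of KO over WT was 0.67 (0.59 to 0.75). The direction held in each cluster of the class, with 2105 in WT and 3438 in KO in D2, 3042 and 3919 in D3, and 1165 and 1999 in D4. In D3 alone the log2 ratio was 0.37, below that of the class. The mix of clusters was not the same in the libraries, since D3, the cluster with the most Ccl22, held 52 of 148 WT and 111 of 246 KO cells of the class. cDC2-like cells were also higher in KO (0.38, 0.19 to 0.57), and cDC1-like cells lower (-0.51, -0.70 to -0.31). In thinned cDC1-like cells the share with Ccl22 was 34.6% (24.3 to 46.0) in WT and 17.4% (11.1 to 25.3) in KO, the same direction as the level.

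Ccl17, which shares the receptor CCR4 with Ccl22, was spread more widely. In WT it stood at 540.3 CPM in cDC1-like, 496.6 in mature DC-like, 414.6 in cDC2-like and 320.1 in transitional cells, neighbours whose intervals overlap down to the last. In KO the order began with mature DC-like cells at 867.3 and cDC2-like cells at 817.8, followed by cDC1-like cells at 433.2 and transitional cells at 212.3. The KO library thus had more Ccl17 in mature DC-like cells (0.80, 0.63 to 0.98) and cDC2-like cells (0.98, 0.72 to 1.24), and less in cDC1-like cells (-0.32, -0.54 to -0.09) and transitional cells (-0.59, -0.86 to -0.33). None of these 4 ratios reached 2-fold.

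A few cells carried much of the Ccl17. In cDC1-like cells 5 cells held 68.2% of its UMIs in WT and 65.4% in KO, and in mature DC-like cells 42.9% and 28.1%; the richest cell of any class had 79 UMIs in WT and 98 in KO. The UMIs of 1 cell are not independent, so intervals on Ccl17 are narrower than the spread between cells would make them. Averaging over cells in place of UMIs took the mature DC-like ratio from 0.80 to 0.46, and a mitochondrial limit of 10% took it to 0.12. After thinning, Ccl17 was found in 21.1% of WT and 31.9% of KO mature DC-like cells, with 45.9% in KO cells of D3 against 31.4% in WT, and in 0 of 56 WT and 0 of 91 KO T cell-like cells, which allows up to 6.38% and 3.97%.

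The pair had a different mix in each class. The share of one gene in the summed UMIs of the pair was compared between classes and libraries only; it is not scaled by transcript length. Ccl17 made up 17.8% (16.2 to 19.5) of the summed Ccl17 and Ccl22 UMIs in WT mature DC-like cells and 19.3% (18.2 to 20.4) in KO. In cDC2-like cells it was 31.6% in WT and 41.3% in KO, and in cDC1-like cells 42.3% and 45.5%. Monocyte-like cells had mostly Ccl17, 82.1% and 78.1%. Of these classes the transitional one differed most between the libraries, at 83.6% in WT and 49.4% in KO; Ccl17 was lower there in KO and Ccl22 higher.

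That class had a Ccl22 level of 63.0 CPM in WT and 217.1 in KO (1.78, 1.39 to 2.20), with 74.7% of the KO UMIs in 5 cells. Transitional cells with a Ccl22 UMI had a summed level of the 14 mature DC markers of 1640 in WT and 2875 in KO, and those without one 508.8 and 696.1; over the class this sum was 669.4 and 963.6. The part of such marker UMIs in the result was not tested. Macrophage-like cells had little of either ligand: Ccl22 at 15.9 in WT and 7.42 in KO, and Ccl17 at 20.4 and 2.97, with 75.9% of the WT Ccl17 UMIs in 5 cells.

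Ccl17 and Ccl22 were found in the same cells more often than in others of the class. Among thinned mature DC-like cells with a Ccl17 UMI, 80.0% (24 of 30) had Ccl22 in WT and 90.5% (67 of 74) in KO, against 58.9% and 60.1% of cells without Ccl17. Cells with Ccl17 had a median of 4852 UMIs before thinning in WT, and those without it 4469.5. In KO the medians were 5300 and 3927, so the KO pair also differed in depth. The class pools D2, D3 and D4, which differ in their Ccl22 level, and the part of that mix in the co-detection was not tested. In cDC1-like cells, those with Ccl22 had Ccr7 in 92.9% in WT and 85.7% in KO, against 52.8% and 57.0% of those without. There the cells with Ccl22 were also the deeper ones before thinning, with medians of 9297.5 and 6096 UMIs in WT and 7027 and 5327 in KO.

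Ccl24 (eotaxin-2) was a transcript of the monocyte-macrophage side. Transitional cells had 543.5 CPM in WT and 800.2 in KO (0.56, 0.40 to 0.72), and the share of thinned cells with a UMI was 14.4% and 23.7%. Next in WT came cluster 5, an unnamed cluster with neutrophil and monocyte markers together, at 300.6 in WT and 328.6 in KO, and monocyte-like cells at 259.7 and 178.9 (-0.53, -0.85 to -0.23). In macrophage-like cells the level was 81.9 and 159.8 (0.96, 0.74 to 1.19). Within macrophages Ccl24 belonged to one cluster: cluster 2 had 155.0 and 287.8, and cluster 7 had 3.90 in WT and 0 UMIs in KO. A handful of cells carried it, since 5 macrophage-like cells held 52.9% of the UMIs in WT and 63.2% in KO. DC clusters held under 1% of the gene in both libraries, 0.838% and 0.743%; in mature DC-like cells the 14 WT UMIs were all in 2 cells of D4.

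Cells with Ccl24 were not poor in Ccl17. Among thinned transitional cells with Ccl24, 22.9% had Ccl17 in WT and 19.1% in KO, against 10.6% and 7.3% of those without. For Ccr7 the WT shares ran the other way, 8.57% with Ccl24 and 24.04% without, and the KO shares were alike at 21.3% and 21.2%. The cells with Ccl24 numbered only 35 of 243 in WT and 47 of 198 in KO, so these shares rest on few cells.

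Ccl6 had the most UMIs of the 5 ligands in WT (6569, not scaled by length), and was highest in the neutrophil-like class, at 1472 CPM in WT and 1046 in KO (-0.49, -0.63 to -0.35). This class was not the same mix of cells in the libraries: cluster 1 held 498 of 682 neutrophil-like cells in WT, and cluster 3 held 328 of 403 in KO. Cluster by cluster the difference was not kept. Cluster 1 stood at 1630 in WT and 1511 in KO (-0.11, -0.32 to 0.09), an interval that holds 0, and cluster 3 at 467.3 and 846.8 (0.85, 0.54 to 1.19). Cluster 3 was shallow, with a median depth 0.341 of that of its samples. It had none of the neutrophil markers among its 10 leading genes. Its depth lay just above the limit under which it would have stayed unnamed, so its name is a near-threshold one. In thinned cells, Ccl6 was found in 68.8% and 60.8% of cluster 1 and 22.03% and 43.4% of cluster 3. Thinning left out 77 of the 682 WT and 186 of the 403 KO neutrophil-like cells, so these shares describe the deeper cells only.

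Outside neutrophils Ccl6 was similar in the libraries in macrophage-like cells, monocyte-like cells and cluster 5, but not in transitional cells. Macrophage-like cells had 454.9 CPM in WT and 473.1 in KO (0.06, -0.06 to 0.17), monocyte-like cells 301.4 and 291.3, and cluster 5 710.6 and 754.6. Transitional cells were lower in KO, at 350.3 and 181.3 (-0.95, -1.23 to -0.68), with 48.3% of the WT UMIs in 5 cells. T cell-like cells, which should lack Ccl6, showed it in 8.93% of thinned WT cells and 3.30% of KO cells, and at 154.7 and 37.9 CPM; low values elsewhere, such as 54.9 and 20.2 in mature DC-like cells, are at or under that background.

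Ccl9, the neighbour of Ccl6, was a macrophage and monocyte transcript with little in neutrophils. Macrophage-like cells had 262.1 CPM in WT and 319.7 in KO (0.29, 0.14 to 0.43), and monocyte-like cells 278.9 and 244.0, so that the 2 classes overlapped in WT and stood apart in KO. Cluster 5 had 182.2 and 223.1, transitional cells 159.6 and 162.2, and neutrophil-like cells 48.8 and 39.8. The macrophage ratio was 0.14 with a mitochondrial limit of 10% and 0.01 with 500 to 6000 genes. Of the classes compared here, the pair set neutrophil-like cells apart. Ccl6 was 96.8% of the summed Ccl6 and Ccl9 UMIs in WT and 96.3% in KO neutrophil-like cells. It was 63.4% and 59.7% in macrophage-like cells, 51.9% and 54.4% in monocyte-like cells, and 68.7% and 52.8% in transitional cells. The KO intervals of macrophage-like, monocyte-like and transitional cells overlap. In thinned macrophage-like cells with Ccl6, 37.4% had Ccl9 in WT and 38.1% in KO, against 10.7% and 14.4% of those without.

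Among the receptors, Ccr7 had the most UMIs, 6811 in WT and 8267 in KO. It reached 4096 CPM in WT and 3958 in KO mature DC-like cells (-0.05, -0.12 to 0.02), so the library difference of nearly 2-fold was not seen inside its main class. Other settings gave -0.17 to -0.01, and the single clusters -0.06 in D2, -0.24 in D3 and -0.36 in D4, with an interval that holds 0 in D2 and not in D3 or D4. cDC2-like cells had 2937 and 2337 (-0.33, -0.44 to -0.22) and cDC1-like cells 2189 and 1684 (-0.38, -0.49 to -0.27), both lower in KO. In thinned cells Ccr7 was found in 94.4% and 96.6% of mature DC-like cells, 79.6% and 72.9% of cDC2-like cells and 66.7% and 62.0% of cDC1-like cells. Cells with this migration receptor were found in all 6 DC clusters.

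Below the DCs came transitional cells, at 447.7 in WT and 474.7 in KO (0.08, -0.11 to 0.28), and T cell-like cells, at 223.5 and 219.0. In macrophage-like cells Ccr7 was lower in KO (62.7 and 39.1, -0.68, -1.06 to -0.31), and in monocyte-like cells higher (32.5 and 75.4, 1.21, 0.59 to 1.86). Neutrophil-like cells, mostly cluster 1 in WT and cluster 3 in KO, were taken as the class that should lack it. They had 21.01 and 62.8 CPM (1.58, 0.83 to 2.31). Of the cells deep enough to thin, 605 in WT and 217 in KO, 1.82% and 8.29% had a UMI. The summed level of the 14 mature DC markers in the class was 193.6 in WT and 270.0 in KO, and over all cells it was 1435 and 3005. The KO monocyte-like Ccr7 interval (56.2 to 99.2) overlaps the KO neutrophil-like one (42.4 to 89.6), and KO macrophage-like cells, at 39.1, were lower. Ccr7 in these KO classes thus does not stand apart above that background. The part of free RNA in the KO values was not tested.

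Xcr1 was highest in cDC1-like cells, with 426.9 CPM in WT and 370.5 in KO (-0.20, -0.45 to 0.05). It was also found in D3, the mature cluster that also met cDC1 markers, at 331.6 and 185.4 (-0.84, -1.22 to -0.45), while D2, mature as well, had 1 UMI in each library. D5, an unnamed cluster of 8 WT and 33 KO cells, had 124.5 and 368.6. The thinned shares had the same order, 34.6% and 25.6% in cDC1-like cells, 17.6% and 13.5% in D3 and 1.54% and 0.971% in D2, with T cell-like cells at 1.79% in WT and 0 of 91 in KO, which allows up to 3.97%. In cDC2-like cells Xcr1 was at 7.49 and 23.0. Over the DC clusters together it was 207.9 and 195.2.

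At full depth, where the libraries differ in UMIs per cell, the shares in the class with each gene's highest level (both libraries summed) were higher, other than Ccl6 in KO, where cells too shallow to thin also counted. Ccl17 had a UMI in 43.2% of WT and 49.2% of KO mature DC-like cells, and Ccr7 in 98.0% and 97.2%. For Xcr1 in cDC1-like cells they were 69.1% and 56.6%, for Ccl24 in transitional cells 25.1% and 33%, and for Ccl6 in neutrophil-like cells 72.7% and 47.1%, against 60.3% and 49.3% after thinning. For Ccl9 in macrophage-like cells they were 40.7% and 39.8%, against 16.3% and 19.7% after thinning. Thinning thus kept the direction of each of these but Ccl9 and Ccr7, the latter with shares near 100% either way. T cell-like cells had a median of 2284.5 UMIs in WT and 1823 in KO among those thinned, less than mature DC-like cells with 4566.5 and 4281.5.

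**Figure D3:**
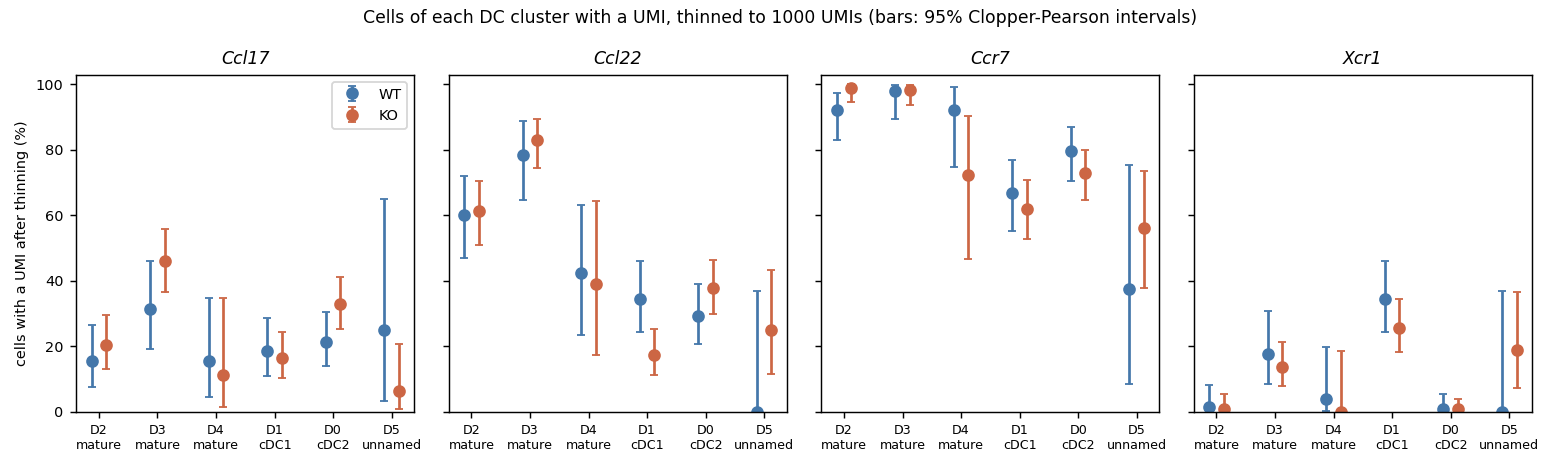
Share of cells with a UMI (%, vertical axis) in each DC cluster after thinning to 1000 UMIs, for Ccl17, Ccl22, Ccr7 and Xcr1, in the WT and the KO library; bars are 95% Clopper-Pearson intervals. Ccr7 is found in most cells of D0 to D3, whereas Xcr1 is found in D1, D3 and KO cells of D5 and in 1.54% or less of D2.

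Cx3cr1 had the fewest UMIs of the 8, 304 UMIs in WT and 275 in KO. Macrophage-like cells had 63.4 CPM in WT and 112.3 in KO (0.83, 0.56 to 1.08), the only class here with more than 50 UMIs. Both macrophage clusters were higher in KO, cluster 2 at 34.9 and 67.7 and cluster 7 at 93.9 and 168.1. The thinned shares were 4.13% and 8.96% in macrophage-like cells, against 0 of 605 WT neutrophil-like cells, which allows up to 0.608%, and 0.461% in KO. The macrophage-like cells thinned had medians of 8157.5 UMIs in WT and 6638 in KO, and the neutrophil-like cells 2613 and 1428. Among the small groups, mast cell-like cells had 11 of 80841 UMIs in WT and 8 of 22655 in KO. That is a higher level than in macrophage-like cells, but rests on 16 WT and 5 KO cells. The unnamed cluster 12, of 13 and 19 cells, had 8 of 141531 and 16 of 145708 UMIs, near the macrophage-like level. These groups had under 20 cells in a library and were left out when the highest class was chosen.

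Read class by class, the ratios past 2-fold lay outside the class with the highest level of the gene. Counting genes that reached 20 UMIs in a class, Ccl22 was past 2-fold higher in KO transitional cells (1 of 6 of the list, 3.05% of all genes there), Ccl22 and Ccr7 in neutrophil-like cells (2 of 4, 5.75%), Ccr7 in monocyte-like cells (1 of 5, 2.37%) and Ccl9 in cDC2-like cells (1 of 5, 3.89%, with 7 UMIs in WT and 24 in KO). Past 2-fold lower were Ccl17 and Ccl22 in macrophage-like cells (2 of 7, 2% of all genes there), Ccl6 in mature DC-like cells (1 of 5, 3.91%) and Ccl6 in T cell-like cells (1 of 2, 3.48%). The median of the members tested was near 0 in mature DC-like (-0.05), macrophage-like (0.06), transitional (0.05) and monocyte-like cells (-0.05). It was -0.35 in cDC1-like cells, 0.38 in cDC2-like cells, 0.66 in neutrophil-like cells and -1.01 for the 2 members tested in T cell-like cells; over all genes tested it lay between -0.02 and 0.07 in these classes. Ccl6 in T cell-like cells had 27 UMIs in WT and 9 in KO, and Ccr7 in neutrophil-like cells 37 and 30. Ccl6 in mature DC-like cells had 42 and 23 UMIs, at 54.9 and 20.2 CPM, under the 154.7 and 37.9 of T cell-like cells. Ccl22 in macrophage-like cells, at 15.9 and 7.42 CPM, was under the 17.2 and 16.8 of T cell-like cells, with overlapping intervals. Ccl22 in neutrophil-like cells had 14 and 18 UMIs, and its KO interval (22.3 to 59.5 CPM) overlaps that of T cell-like cells (4.59 to 43.1). Ccr7 in monocyte-like cells had 39 and 51 UMIs, and its KO interval overlaps that of neutrophil-like cells, taken to lack it.

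**Figure D4:**
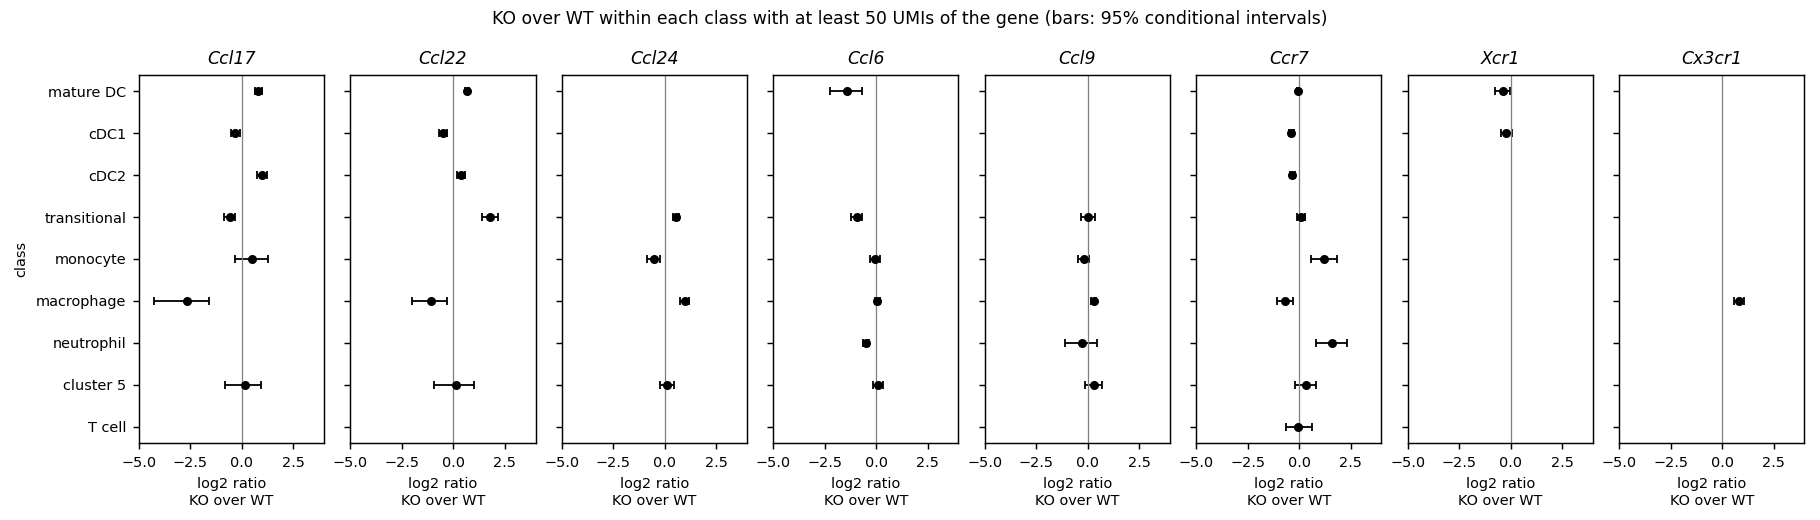
Log2 ratio of KO over WT (horizontal axis) within each class (vertical axis) that had at least 50 UMIs of the gene, 1 panel per gene; bars are 95% conditional intervals. Ccl17 and Ccl22 are to the right of 0 in mature DC-like and cDC2-like cells and to the left in cDC1-like cells, and Ccr7 is at -0.05 in mature DC-like cells.

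The second question was how much of each library ratio goes with the share of the classes and how much with levels inside them. DC clusters had a larger share of the KO library. Mature DC-like cells were 5.49% of WT and 12.3% of KO cells, and cDC1-like cells 3.00% and 6.10%. The split used each class's share of UMIs, which also carries UMIs per cell. By UMIs, mature DC-like cells were 6.23% of WT and 15.1% of KO. Neutrophil-like cells were 25.3% and 20.2% of cells but 14.3% and 6.32% of UMIs, with medians of 2503.5 and 1051 UMIs per cell. Holding WT levels and taking KO class shares gave Ccr7 a log2 ratio of 1.10, above its measured 0.98, and Xcr1 1.12, close to its measured 1.13, and holding WT shares and taking KO levels gave -0.11 and -0.09. Ccl22 had 1.16 from shares and 0.52 from levels. For Ccl17 these were 0.84 and 0.20, the latter -0.01 with a mitochondrial limit of 10%. Cx3cr1 was the reverse of the DC genes, -0.35 from shares and 0.88 from levels. Ccl24 had -0.30 and 0.40, and Ccl9 -0.40 and 0.19, opposite signs that leave small library ratios. Ccl6 had -0.71 and -0.19, and with clusters in place of classes -0.92 and -0.03. This is arithmetic on 1 library each and does not say why the shares differ. A share of UMIs mixes the number of cells with their UMIs per cell. Fewer cells of a class in the tissue and fewer recovered by the sort cannot be told apart.

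**Figure D5:**
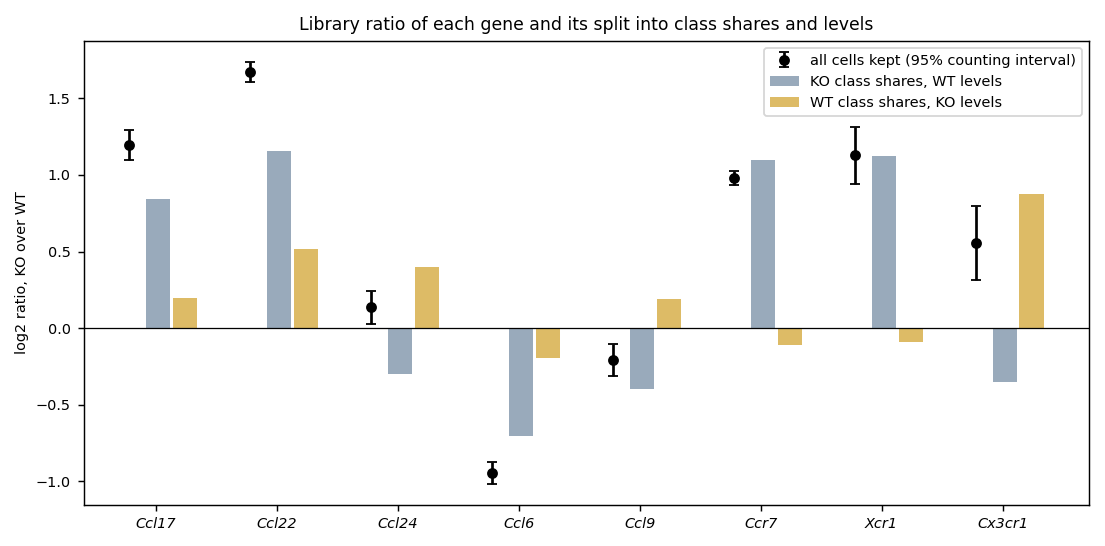
Log2 ratio of KO over WT (vertical axis) of each gene over all cells kept (black points with 95% counting intervals), beside the ratio from KO class shares with WT levels (grey-blue bars) and from WT class shares with KO levels (yellow bars). For Xcr1 the shares bar is at 1.12 beside a point at 1.13, for Ccr7 it is at 1.10, above the point's interval of 0.93 to 1.03, for Cx3cr1 the levels bar is the higher, and Ccl22 has both above 0.

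The receptors and ligands that the 8 genes act through were next looked up. Ccr4, the receptor of CCL17 and CCL22, had 5 UMIs in each library, all in T cell-like cells. Ccl19 and Ccl21a, the ligands of CCR7, had 0 UMIs in both libraries, mature DC-like cells included. Xcl1, the ligand of XCR1, had 21 UMIs in WT and 6 in KO, of which 20 and 6 were in T cell-like cells. Cx3cl1 was a DC transcript, at 26.1 and 34.2 CPM in mature DC-like and 9.99 and 37.1 in cDC2-like cells, although macrophages carry its receptor. Ccr1, the receptor of CCL6 and CCL9, was at 511.6 in WT and 281.8 in KO (-0.86, -0.93 to -0.79). In WT its highest level was in monocyte-like cells, at 792.6, which had 556.0 (501.2 to 615.2) in KO. In KO the unnamed cluster 5 was higher, at 616.7 (522.6 to 722.9), with overlapping intervals. Ccr3, which binds CCL24, had 74 and 36 UMIs.

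Of the other chemokine genes, 21 of 32 ligands in the files and 14 of 20 receptors had at least 20 UMIs. Of these ligands 2 were at least 2-fold higher in KO and 5 at least 2-fold lower, and of the receptors 2 and 3, beside the 5.47% and 2.41% of all genes; the median log2 ratio was 0.22 for the ligands and -0.46 for the receptors. Of those past 2-fold with at least 100 UMIs, the neutrophil attractant Cxcl2 was lower in KO, at 6447 CPM in WT and 2613 in KO. Its relative Cxcl3 stood at 761.6 and 372.9, and Ccl3, an attractant of monocytes and T cells, stood at 1037 and 430.2. The neutrophil receptor Cxcr2 was at 102.5 and 24.6. Higher in KO were Ccl7, a monocyte attractant, with 20 UMIs in WT and 98 in KO, Cx3cl1 with 50 and 82, and Cxcr6 at 14.7 and 30.4. Cxcl2, Ccl3 and Cxcr2 were highest in neutrophil-like cells, which held 14.3% of WT and 6.32% of KO UMIs. Inside that class Cxcl2, Ccl3 and Cxcr2 were not 2-fold lower in KO. Ccl3 and Cxcl2 were 2-fold lower in monocyte-like and mature DC-like cells, and Cxcr2 in mature DC-like and macrophage-like cells, among others. Ccl3 was 2-fold higher in cDC1-like and cDC2-like cells.

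Genes with the most similar pattern were ranked by Pearson correlation of log2 levels over the 14 classes and unnamed clusters, both libraries summed; these points share libraries, depth and cell mixtures, and give no test. Ccl22 was most like Il4i1 (0.96), Gm13546, Zbtb46, Cacnb3 and Wnt11, and Ccl17 most like Rel (0.93), Wnt11, Il4i1, Etv3 and Tmem131. Ccr7 was most like Map3k1 (0.97), Syngr2, Map3k14, Il6st and Myo1g. Il4i1 and Cacnb3 are among the markers that named the mature DC-like class, and Arg1 and Inhba among those that named the transitional class. Ccl24 followed Arg1 (0.96), Clec4a1, Met, Inhba and Carmil1. Ccl6 followed Tgfbr1 (0.95), Ctsd, Cd33, Gpr84 and Igsf6, and Ccl9 followed Clec4a2 (0.98), Fcgr2b, Atp6v1h and Fam20c. Xcr1 followed Lrrk2 (0.99), Timd4, Slc25a20, Ncoa7 and Jag2, and Cx3cr1 followed Pacc1 (0.96), Npl, Frmd4a, Sh2d1b1 and Gna12. Among the 8 genes themselves, Ccl17 and Ccl22 had 0.93, Ccl22 and Ccr7 0.92, and Ccl6 and Ccl9 0.76.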

How the data were processed

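Single-cell RNA-seq was read from 1 WT and 1 KO library of sorted polyp cells, grouped by their titles. The authors deposited raw UMI counts per gene and barcode, made per the labels with Cell Ranger 2.1.1 on mm10; the protocol names a SeekOne MM 3′ kit while the description names 10x Genomics, and the kit used was not settled here. Filtering of barcodes before deposit is not given in the sources used here; the lowest barcode held 500 UMIs in WT and 501 in KO.

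The 8 genes, the marker lists, the chemokine lists and the rules for naming genes were chosen with earlier results of these data known. Cells outside 200 to 4000 genes or above 5% mitochondrial UMIs were left out, and the rest were scaled to 10000, and clustered with Seurat 5.3.0 (R 4.3.3) on 2000 variable features and 20 components at a resolution of 0.8, the smallest in steps of 0.1 that gave 15 clusters; DC clusters were divided again at 0.5. The 8 genes and the chemokine lists were left out of the features. A class took the name of a marker list when at least 3 of its genes were 2-fold higher in the cluster and found in 10% of its cells. It stayed unnamed where another list had more genes than its own among the 10 leading genes by fold (cluster 5). The same held where proliferation or interferon genes were met at a higher share (cluster 12 and D5). A cluster below a limit of depth with none of its own among the 10 also stayed unnamed. Cluster 3, with none of its own among the 10, lay just above that limit at 0.341. These classes were rebuilt here and may differ from those of the study. Doublets were not removed, since Scrublet in scanpy 1.11.5 marked 0 WT barcodes and 1 KO barcode; an alternative left out the top 5% of scores.

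Levels (CPM) are UMIs of a gene per 1000000 UMIs of the same cells, with exact Poisson intervals. The class with the highest level of a gene was chosen among classes with at least 20 cells in each library. Ratios used a pseudocount of 0.5 UMI and exact conditional intervals, and shares exact Clopper-Pearson intervals, all at 95% and all for counting error only. Python 3.11.15, numpy 2.4.6, scipy 1.17.1 and pandas 2.3.3 were used, with edgeR 4.0.16 for TMM factors only. With 1 library per group no test was run. Cells were thinned to 1000 UMIs with seed 1 for shares, leaving 2510 WT and 1692 KO cells. Where 0 cells had a UMI, the limit given is the upper exact bound. On simulated counts for 11461 genes over all cells kept, true log2 ratios of -2, -1, 1 and 2 gave median estimates of -1.995, -1.01, 1.00 and 2.01. These ratios were set on 49, 45, 52 and 54 genes, and intervals covered the true value for 98.0%, 93.3%, 94.2% and 88.9% of them. The other 11261 genes had a true log2 ratio of 0, with 96.0% covered. The counts were drawn from the Poisson model that the intervals assume. Clumping of UMIs in few cells was left out, so coverage under it was not tested.

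The genes named beyond the 8 are their receptors or ligands, the other chemokine genes at least 2-fold apart with at least 100 UMIs, the 5 genes of at least 200 UMIs most correlated with each (log2 of the level plus 10; 1 of these is not reported here), and the class markers; Siglecf and Ear2 were added after their values were seen. Cxcl11 was not analysed here. Of 32285 identifiers, 32158 were in GENCODE M21. Alternatives were other scalings, filters, components, resolutions, integration, pseudocounts, thinning depths and doublet removal.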

Additional observations from a re-analysis of the deposited data

Results flagged for a closer look

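In 4 genes the KO over WT ratio had opposite signs in 2 classes, each with an interval that excludes 0 and at least 50 UMIs; these differences between classes were not tested, since each rests on 1 library per group. Ccr7 had a log2 ratio of 1.58 in neutrophil-like cells and -0.68 in macrophage-like cells. The neutrophil-like class was taken as the one that should lack Ccr7, and was mostly cluster 1 in WT and cluster 3 in KO. Ccl17 had 0.98 in cDC2-like cells and -2.67 in macrophage-like cells, where the gene had 87 UMIs in WT and 6 in KO and 75.9% of the WT UMIs were in 5 cells. Ccl22 had 1.78 in transitional cells, with most of the KO UMIs in 5 cells. After thinning, a Ccl22 UMI was found in 5.35% of WT and 7.07% of KO transitional cells. In macrophage-like cells Ccl22 had -1.06. Its WT level there, 15.9 CPM, had an interval overlapping that of T cell-like cells (17.2), which should lack the gene. Ccl24 had 0.96 in macrophage-like cells, with most of its UMIs in 5 cells in each library, and -0.53 in monocyte-like cells.

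Barcodes that the filters removed entered none of the comparisons of classes. They held Ccl22 at 419.1 CPM in WT and 1002 in KO, and Ccr7 at 686.9 and 1382, levels above those of the cells kept in the same library. The part of cell damage or of more DCs among these barcodes was not tested.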

How the results depend on the processing

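Over all cells kept, 38 of 64 alternative values stayed within counting error. TMM scaling gave log2 ratios of 1.05 for Ccl17, 1.52 for Ccl22, -0.010 for Ccl24 (a change of sign), -1.09 for Ccl6, -0.35 for Ccl9 and 0.83 for Ccr7, with 0 receptors 2-fold higher and Xcr1 at 0.98, under 2-fold, 3.81% of genes higher and 3.25% lower. The mean over cells gave 0.90 for Ccl17, 1.53 for Ccl22, -0.64 for Ccl6 and 0.86 for Ccr7. A mitochondrial limit of 10% gave 1.03 for Ccl17, 0.0066 for Ccl24, -1.11 for Ccl6, -0.40 for Ccl9 and 1.03 for Ccr7. Chosen after seeing the data were no mitochondrial limit (Ccl17 1.00, Ccl24 -0.035, a change of sign, Ccl6 -1.14, Ccl9 -0.42, Cx3cr1 0.31) and every barcode (Ccl17 1.03, Ccl22 1.61, Ccl24 -0.041, a change of sign, Ccl6 -1.08, Ccl9 -0.38, Ccr7 1.03). A minimum of 100 UMIs left 3 ligands and 1 receptor lower and 1 receptor higher by 2-fold, with 2.42% of genes higher and 1.71% lower.

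In each gene's highest class, 57 of 79 values stayed within counting error. With 10 components Ccl22 was 0.54 and Ccr7 -0.15, and with 500 to 6000 genes Ccl24 was 0.81 and Ccl9 0.0068. The mean over cells gave Ccl17 0.46. The 10% mitochondrial limit gave Ccl17 0.12, Ccl22 0.48, Ccl9 0.14 and Ccr7 -0.15, a resolution higher by 0.4 gave Ccl17 0.61, Ccl22 0.51 and Ccr7 -0.17, and removal of the top 5% of Scrublet scores gave 0.59, 0.55 and -0.14. Single clusters, also chosen after seeing the data, gave Ccl6 -0.11 in cluster 1 and 0.85 in cluster 3, a change of sign; D3 gave Ccl17 0.37, Ccl22 0.37 and Ccr7 -0.24, and D4 gave Ccl22 0.78 and Ccr7 -0.36.

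In the split, 93 of 128 values stayed within a band around the main value. The band was as wide as the counting interval of the gene's ratio over all cells kept. It is not a counting error of the split value, which was not computed. For class shares alone, 10 components gave Ccl22 1.25, Ccl24 -0.43 and Ccr7 1.16; the 10% mitochondrial limit gave Ccl17 1.04, Ccl22 1.27, Ccl24 -0.51, Ccl6 -0.85, Ccl9 -0.50, Ccr7 1.16 and Xcr1 1.37; reciprocal PCA gave Ccl24 -0.43 and Ccl6 -0.59; the higher resolution gave Ccl22 1.26 and Ccr7 1.16; Scrublet removal gave Ccl22 1.26; and clusters as the unit, added after seeing the data, gave Ccl17 0.98, Ccl22 1.29, Ccl6 -0.92 and Ccr7 1.17. For levels alone, 10 components gave Ccl22 0.45, Ccl6 -0.33 and Ccr7 -0.18; 500 to 6000 genes gave Ccl24 0.56; the 10% limit gave Ccl17 -0.010, a change of sign, and Ccl22 0.35; reciprocal PCA gave Ccl17 0.30, Ccl24 0.51, Ccl6 -0.37 and Ccr7 -0.051; the higher resolution gave Ccl22 0.37 and Ccr7 -0.17; and clusters as the unit gave Ccl17 0.080, Ccl22 0.44, Ccl6 -0.029 and Ccr7 -0.18. The cause of these moves was not tested.

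Of other values, 42 of 128 levels in the highest class moved past counting error, 11 of 16 with the 10% mitochondrial limit. So did 24 of 32 shares of thinned cells with a UMI, at another depth or unthinned. Unthinned, 5 of 12 differences in co-detection moved past an interval that covers the share among cells with the first gene only. The error of the share among cells without it was left out. A share of cells rises with depth.

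No paired analysis was possible because the result comes from no test and each group is 1 library, which also leaves no replicate to leave out. Cx3cr1 had 579 UMIs in all, the fewest of the 8, and Ccl17 and Ccl24 rested on few cells.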

Other observations

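Among the barcodes removed by the filters, the KO over WT ratios kept the sign seen in the cells kept for Ccl17 (0.60), Ccl22 (1.26), Ccr7 (1.01), Xcr1 (1.12), Ccl6 (-0.80) and Ccl9 (-0.70). Ccl24 (-0.23) and Cx3cr1 (-0.14) had the other sign. In barcodes of 5 to 10% mitochondrial UMIs, Cx3cr1 stood at 50.3 CPM in WT and 37.9 in KO, the reverse of the 24.7 and 36.4 in the cells kept.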
